A study of Mus musculus with 12 samples.

Results

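This account describes 3T3-L1 cells given the adipogenic cocktail DMI together with luteolin, set against 3T3-L1 cells that the labels call untreated. The 6 libraries, 3 from each group, were chosen by their labelled treatment from the 12 libraries of a study of luteolin and quercetin in adipogenesis. Another 3 libraries from cells given DMI alone show how far the cocktail took each gene without luteolin, and the last 3 came from cells given DMI with quercetin. The question was which parts of the DMI induction program were still reached when luteolin was present. DMI stands for dexamethasone, a glucocorticoid, 3-isobutyl-1-methylxanthine (IBMX), an inhibitor of the phosphodiesterases that break down cyclic AMP, and insulin. The labels name 0.5 mM IBMX, 1 µM dexamethasone and 10 µg/ml insulin up to day 2 after confluent cells were induced, then insulin alone, then plain serum medium, and every library is from day 6. For luteolin neither dose nor timing is stated in these sources. The untreated cells are the same wild-type line at the same labelled day, although their labels carry the same induction protocol text as the induced libraries. No vehicle control is named for luteolin.

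3T3-L1 is a clonal mouse fibroblast line whose confluent cells turn into fat cells when given DMI. In this program C/EBPβ and C/EBPδ, switched on by IBMX and dexamethasone, lead to PPARγ and C/EBPα, which hold each other on and activate the genes of the mature adipocyte: lipid droplet proteins, enzymes that build and break down triglyceride, secreted adipokines and a large set of mitochondrial enzymes. Matrix genes and preadipocyte genes such as Dlk1 are shut down on the way. Luteolin is a plant flavone.

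Between 14522182 and 17262585 reads per library were assigned to genes in the 6 libraries, and levels below are CPM, reads of a gene per 1000000 reads assigned in its library, scaled by the trimmed mean of M-values (TMM). The third luteolin library stood apart from the other two. The chi-square per gene between libraries, a measure of how far counts differ beyond sampling noise, was 4.18 between luteolin libraries 1 and 2 but 35.9 and 45.3 between either of them and library 3, against 2.79 to 5.01 among the untreated libraries. Mitochondrial transcripts made up 4.41%, 4.73% and 2.91% of counts in the 3 luteolin libraries and 1.85% to 1.91% in the untreated ones. The third DMI library stood apart from its group in the same way (93.7 and 108.1, against 7.67 between the first and second). The labels do not say whether the 3 libraries of a group came from separate cultures, so every p-value below rests on a spread between libraries that may be technical. Unless another fit is named, that spread was estimated per gene over all 12 libraries, those with DMI alone and with quercetin included. The median standard deviation of log2 CPM over 9804 genes was 0.0736 in untreated, 0.125 in luteolin, 0.183 in DMI and 0.273 in quercetin libraries. In bulk RNA a smaller number of adipocytes and less RNA per adipocyte cannot be told apart.

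The adipocyte markers were reached in every luteolin library. Adipoq (ENSMUSG00000022878, chr16:23146536-23158028), which encodes the adipokine adiponectin, stood at 0.373, 0.179 and 2.05 CPM in the untreated libraries, 1132, 1345 and 396 CPM with luteolin and 1553, 1879.7 and 472 CPM with DMI alone. Fabp4 (ENSMUSG00000062515, chr3:10204088-10208576), a fatty acid carrier of the adipocyte cytosol, stood at 0.932, 2.80 and 7.25 CPM untreated, 1812, 2076 and 794 CPM with luteolin and 2958, 3896 and 840.3 CPM with DMI. Cidec (ENSMUSG00000030278, chr6:113424634-113435760), which enlarges lipid droplets by fusing them, stood at 0.0622, 0.0596 and 3.08 CPM untreated, 778, 1052 and 383 CPM with luteolin and 2459, 3108 and 672 CPM with DMI. For all 3 genes the luteolin libraries lay far above the untreated ones with no overlap, and the third library was the lowest of the luteolin group. The log2 fold changes over untreated cells were 10.09 ± 1.04 (SE) for Adipoq, 8.73 ± 1.01 for Fabp4 and 9.42 ± 1.14 for Cidec, with adjusted p = 0.000141, 0.000258 and 0.000342 (edgeR quasi-likelihood test, Benjamini-Hochberg over 14855 genes). The untreated background was set by the third untreated library, and without it the 3 values were 11.76, 9.73 and 13.43. Against DMI alone, Cidec was -1.49 ± 0.77 log2 units different with luteolin and Adipoq -0.44 ± 0.66, and neither difference passed the test (adjusted p = 0.854 and 0.998). With the library number as a block, a pairing the labels do not name, both passed in a fit of the 6 libraries of these 2 groups (adjusted p = 0.00104 and 0.0195). Neither passed with that block over the 12 libraries (adjusted p = 0.603 and 0.936). In the authors' FPKM, which divide by a length per gene, the mean luteolin level was 347 for Fabp4, 693 for Adipoq and 397 for Cidec. The deposited length is named only as gene length, so these values do not rank the 3 genes.

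**Figure D1:**
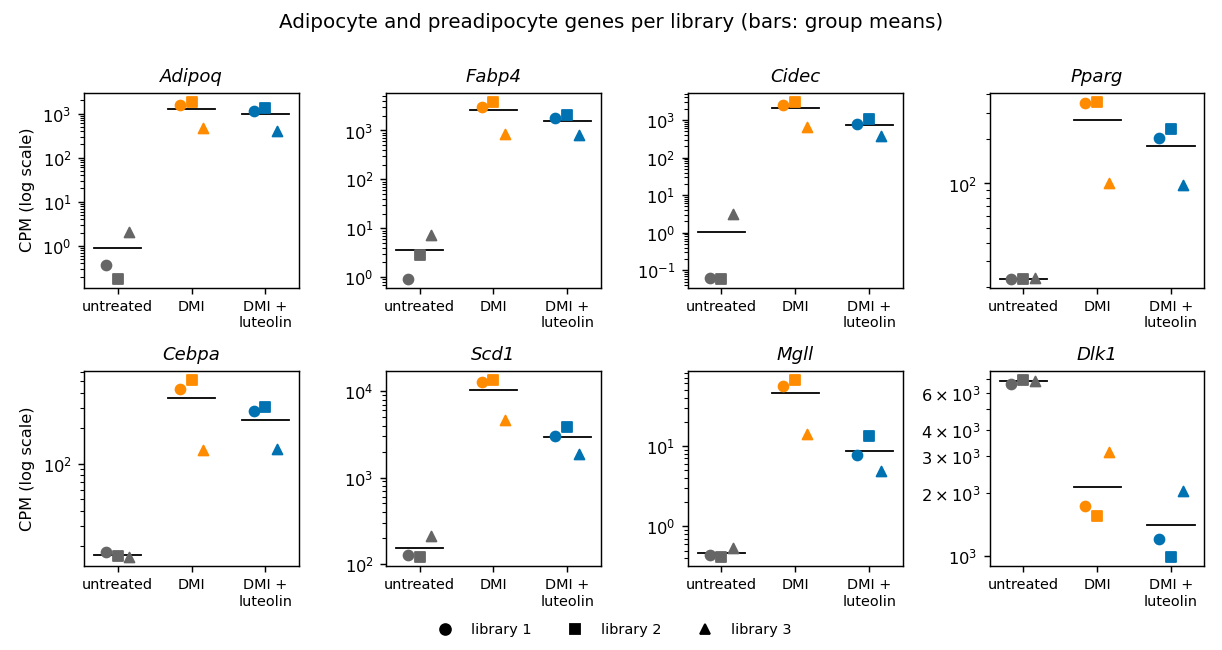
CPM (log axis, range set per panel) of 8 genes in each untreated, DMI and DMI with luteolin library; marker shape gives the library number and the bar the group mean. The luteolin libraries are far above the untreated ones for the 7 genes that rose and below them for Dlk1, and library 3 of each induced group lies nearest to the untreated level.

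Across all genes tested, 2865 of 14855 (19.3%) differed between luteolin with DMI and untreated cells at adjusted p below 0.05. Of these, 1566 (10.5% of genes tested) were higher with luteolin and 1299 (8.74%) were lower, and 1549 (10.4%) differed at least 2-fold. The higher genes were 54.7% of the calls with TMM scaling and 68.5% when only library totals were used, so the balance between the directions depends on the scaling. The 3 luteolin libraries lay wholly above or below the 3 untreated ones for 7993 genes (53.8%). DMI alone against the same untreated libraries gave 4024 calls (27.1%), 2187 higher (14.7%) and 1837 lower (12.4%). With one library left out, the luteolin count was 1426, 1466 and 1542 without untreated library 1, 2 or 3. It was 1288 and 1181 without luteolin library 1 or 2. It was 4499 without the third quercetin library, which is in neither group but enters the shared estimate of the spread. Without the third libraries of all induced groups, an alternative chosen after seeing the data, it was 6786.

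**Figure D2:**
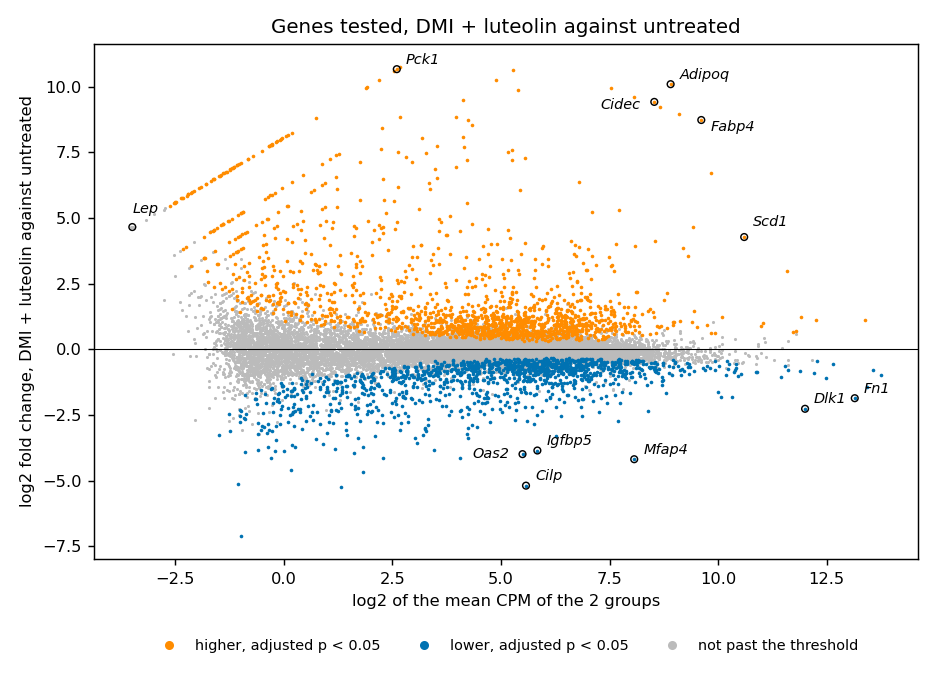
Log2 fold change of DMI with luteolin over untreated (y) against the log2 of the mean CPM of both groups (x) for the 14855 genes tested, coloured by the call at adjusted p below 0.05. The adipocyte genes reach log2 values near 10, the falls end near -5 for abundant genes, and the diagonal streaks at the left are genes with no count in the untreated libraries, whose fitted fold is no bound.

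Most of the strong induction by DMI was also called with luteolin. The 2 contrasts share the untreated libraries, so their values are set side by side and no relation between them is given. Of the 2187 genes higher with DMI, 1392 (63.6%) were also called higher with luteolin, which is 88.9% of the luteolin rises, and 0 were called in the opposite direction. Among the 610 genes that rose at least 4-fold with DMI, 517 (84.8%) were called higher with luteolin, with a median log2 fold change of 3.20 against 3.96 with DMI. In 572 of these 610 genes the luteolin level lay below the DMI level, with a median difference of -0.77, although the genes had been picked with the DMI libraries, which favours that direction. Of the 1837 genes lower with DMI, 1073 (58.4%) were also called lower with luteolin, 82.6% of the luteolin falls. Among the 111 that fell at least 4-fold, 91 (82.0%) were called, and the medians were -2.36 with luteolin and -2.30 with DMI. When luteolin with DMI was tested against DMI directly, only 3 genes (0.0202%) passed, H19, Plagl1 and Gfra1, all lower with luteolin. That count was 1566 without the third libraries of all induced groups, 259 without the third DMI library alone, and 0 to 6 when any other single library was left out. Same-numbered libraries of the luteolin and DMI groups deviated together, but only the third libraries were set apart by this (r across genes 0.59). Luteolin library 2 correlated at 0.367 with DMI library 1 and at 0.337 with DMI library 2. The labels name no pairs, so the pairing was read from the same data it was used on. The direct test was also run with the library number as a block, which cannot show that the pairs are real. It then gave 25 genes (0.168%) in the fit over the 12 libraries, 4 higher (0.0269%) and 21 lower (0.141%) with luteolin, and 929 of 14111 (6.58%) in a fit of the 6 libraries of the pair, 306 higher (2.17%) and 623 lower (4.41%) with luteolin, and the 3 genes were among the calls of both. In the latter fit 19 of 21 adipocyte genes, 11 of 16 fatty acid synthesis genes and 10 of 14 lipolysis genes were called lower with luteolin than with DMI, and 0 of each were called higher. With the block over the 12 libraries the counts called lower were 2, 0 and 2, and without the block they were 0 for each list. The list counts thus depended on the model. Below, the fit of the 6 libraries of the pair with the block is called the blocked fit. Some genes below had all luteolin libraries above or below all DMI libraries. The share of all genes tested with such separation was not counted, so it describes the values and is no support for a difference.

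Genes that define the mature adipocyte had the highest median change of the gene lists examined. Counts of list members below are over those that passed the filter on low counts, which a gene can pass through its induced level alone, so they describe the list and are read against the 10.5% of genes called higher and the 8.74% called lower. Of 22 listed adipocyte genes, Rbp4 had no count in any library and 21 were tested. With luteolin 20 rose and 0 fell, and with DMI all 21 rose. Their median log2 fold change was 8.74 with luteolin, or 8.08 with genes at 0 counts in untreated cells set to their lower bound, against 9.99 with DMI and -0.03 over all genes with luteolin. All 21 were lower with luteolin than with DMI in the mean, by a median of -1.10 log2 units. Pck1, whose enzyme supplies glycerol for triglyceride, had no count in any untreated library and stood at 12.9, 18.5 and 5.06 CPM with luteolin and 61.7, 59.6 and 15.8 CPM with DMI. That is at least 205-fold higher with luteolin than the level of 3 counts over the untreated group. Adrb3, the β3-adrenergic receptor that drives lipolysis, likewise went from 0 to 14.8, 16.1 and 3.79 CPM, at least 196-fold higher. Mrap, an accessory protein of melanocortin receptors, had 2 reads in the untreated group and stood at 63.8, 80.8 and 32.5 CPM with luteolin, a ratio of 1484 (95% exact counting interval 410.4 to 12260.0).

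Lep, the gene of the hormone leptin, was the listed adipocyte gene that did not pass. It had 0 counts in the untreated libraries, 0.175, 0.295 and 0.0665 CPM with luteolin and 2.52, 3.91 and 0.677 CPM with DMI, and adjusted p = 0.0957 for luteolin against untreated. Its highest luteolin library lay below its lowest DMI library, but the direct test did not pass (-3.64 ± 0.76 log2 units, adjusted p = 0.391). It passed in the blocked fit (adjusted p = 0.00172) and with the block over the 12 libraries (adjusted p = 0.0448). Lep passed under 5 of the alternatives tried, among them DESeq2 and the fit without the third DMI library, against untreated (adjusted p = 0.027 and 0.0354).

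The gene of perilipin 1, the main coat protein of the adipocyte lipid droplet, shows the size of the rise and a promoter with matches to the C/EBP core. Plin1 stood at 0.0622, 0.179 and 1.81 CPM untreated, 648, 716 and 249 CPM with luteolin and 1034, 1194 and 298 CPM with DMI, a log2 fold change of 9.60 ± 1.07 with luteolin (adjusted p = 0.000206) and 12.06 without the third untreated library. Every luteolin library lay far above every untreated one. Its 250 bases upstream of the RefSeq start (GRCm38.p6, chr7:79732777-79733026, minus strand) are printed 5′ to 3′ with matches to TTGCNNAA in capitals.
Plin1: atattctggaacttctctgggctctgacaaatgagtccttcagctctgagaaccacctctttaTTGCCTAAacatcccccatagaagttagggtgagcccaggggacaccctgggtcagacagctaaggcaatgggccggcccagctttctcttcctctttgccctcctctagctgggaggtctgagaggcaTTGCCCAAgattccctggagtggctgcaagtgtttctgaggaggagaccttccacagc
The core TTGCNNAA, searched on both strands, matched the upstream 250 bases of 3 of the 13 tested adipocyte genes found in the RefSeq table (23.1%) and of 8.89% of the 10330 tested genes found there. A match is a description of the sequence and not a measured binding site.

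Among the genes with the largest rises were also Slc13a4, Trem2, Slc36a2, Aatk and Cfd. Slc13a4, a sulfate transporter, had no untreated count and stood at 14.4, 18.1 and 5.66 CPM with luteolin, at least 214-fold higher. Trem2, a lipid-binding receptor best known from macrophages, went from 0 to 9.78, 12.3 and 5.52 CPM, at least 154-fold higher, and Slc36a2 and Aatk from 0 to at least 127-fold and 124-fold higher. Cfd, the secreted protease adipsin, stood at 0.124, 0.0596 and 0.906 CPM untreated and 415, 513 and 186 CPM with luteolin. In each of these 5 genes the DMI mean was higher than the luteolin mean.

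Of 21 adipogenic transcription factors tested, 13 rose and 2 fell with luteolin, against 13 and 3 with DMI. The median log2 fold change was 1.09 with luteolin and 1.35 with DMI. Pparg, the nuclear receptor at the centre of the program, stood at 22.8, 22.8 and 22.96 CPM untreated, 204, 231 and 97.6 CPM with luteolin and 346, 357 and 101 CPM with DMI. Its luteolin level was 2.96 ± 0.46 log2 units above untreated (adjusted p = 0.00137) and -0.59 ± 0.43 from DMI (adjusted p = 0.943). The latter adjusted p was 0.0388 in the blocked fit and 0.65 with the block over the 12 libraries. Cebpa, its partner factor, stood at 17.8, 16.7 and 16.3 CPM untreated and 279, 301 and 134 CPM with luteolin, a rise of 3.81 ± 0.54. Klf15, a glucocorticoid-induced factor, was at 0, 0.119 and 0.121 CPM untreated, 17.1, 19.9 and 4.86 CPM with luteolin and 53.04, 64.9 and 12.3 CPM with DMI, and Nr1h3, the oxysterol receptor LXRα, rose by 3.64 ± 0.57. The first and second luteolin libraries were well above the third for these 4 genes, and all 3 were above every untreated library. Cebpb, the early factor of the cascade, stood at 103, 108 and 112 CPM untreated and 145, 146 and 152 CPM with luteolin at this late day and did not pass (log2 fold change 0.46, adjusted p = 0.25), while it passed when only the 6 libraries were fitted (adjusted p = 0.000582) and without the third quercetin library (adjusted p = 0.0102). Zfp423, a commitment factor, fell by 0.85 on the log2 scale with luteolin, from 82.7, 85.7 and 90.3 to 47.3, 43.8 and 52.97 CPM. The other fall of this list, in the coactivator gene Ppargc1a, was lost without any single untreated or luteolin library, and 4 genes fell without the third libraries of all induced groups.

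Genes listed for the glucocorticoid and cyclic AMP responses were also called with luteolin. Dexamethasone and IBMX were given up to day 2 and the libraries are from day 6, so a response to these agents was not tested. Of 18 tested genes of the glucocorticoid response, 9 rose and 1 fell with luteolin, and the same numbers rose and fell with DMI. Zbtb16, a transcription factor induced by glucocorticoids, stood at 0.249, 0.418 and 0.0604 CPM untreated, 32.5, 37.2 and 23.3 CPM with luteolin and 47.1, 53.03 and 19.6 CPM with DMI. Fkbp5, a cochaperone of the glucocorticoid receptor, stood at 46.1, 41.04 and 49.8 CPM untreated, 99.2, 119.6 and 137 CPM with luteolin and 80.8, 89.5 and 98.01 CPM with DMI. Library 3 was the highest of the luteolin group, the reverse of the adipocyte genes, and the rise of Fkbp5 was 1.38 ± 0.17 (adjusted p = 0.000363). Every luteolin library lay above every DMI library, by 0.408 ± 0.165 log2 units in the fit (adjusted p = 0.751). The adjusted p was 0.0111 in the blocked fit and 0.517 with the block over the 12 libraries. In the blocked fit 2 of the 18 glucocorticoid genes were called higher with luteolin than with DMI and 5 lower. With the block over the 12 libraries 0 were called in either direction. Hsd11b1, which regenerates active glucocorticoid, rose by 4.56 ± 0.59 and is also a gene of mature adipocytes. Of 16 genes of phosphodiesterases and the cyclic AMP response, 5 rose and 4 fell. Pde3b, the phosphodiesterase through which insulin restrains lipolysis, stood at 1.62, 2.62 and 1.15 CPM untreated, 19.5, 27.4 and 10.5 CPM with luteolin and 67.8, 70.1 and 15.5 CPM with DMI. The 5 rises became 3 without untreated library 3 or luteolin library 1 or 2, and 8 without the third libraries of all induced groups. The 4 falls became 1 without any single untreated library or luteolin library 1 or 2. The single fall of the glucocorticoid list, Ddit4, an inhibitor of mTOR signalling, was lost without untreated library 3 or luteolin library 1 or 2.

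Of 19 insulin and IGF signalling genes, 9 rose and 4 fell with luteolin, and 10 rose and 4 fell with DMI. Slc2a4, the insulin-regulated glucose transporter, stood at 0, 0.0596 and 0.423 CPM untreated, 40.6, 46.96 and 18.3 CPM with luteolin and 142, 164 and 35.95 CPM with DMI. The 4 that fell were the binding proteins Igfbp4, Igfbp5 and Igfbp6 and the growth factor Igf1, which stood at 135, 152 and 139 CPM untreated, 36.3, 36.7 and 53.6 CPM with luteolin and 62.5, 43.9 and 111 CPM with DMI. Igf1 lost the call without luteolin library 1 or 2 (adjusted p = 0.0514 and 0.0518), and Igfbp6 without untreated library 3 or luteolin library 1 or 2 (adjusted p from 0.0653 to 0.0855). The 9 rises were 5 without luteolin library 2. The 4 falls were 2 without luteolin library 1 or 2 and 7 without the third libraries of all induced groups.

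**Figure D3:**
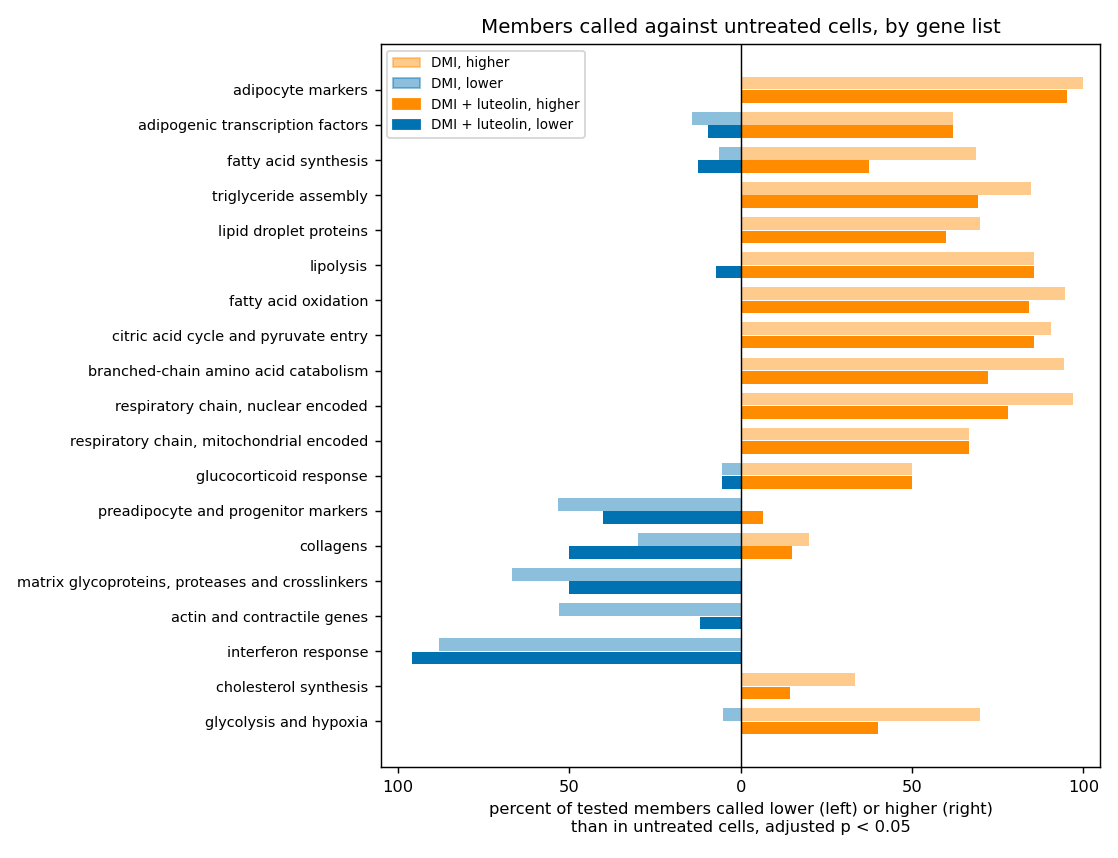
Percent of each list's tested members called higher (right, orange) or lower (left, blue) than untreated at adjusted p below 0.05, for DMI (pale) and DMI with luteolin (dark). On the higher side the bars for luteolin are shorter than those for DMI in most lists. Among these are fatty acid synthesis, glycolysis, cholesterol synthesis, branched-chain amino acid breakdown and nuclear-encoded subunits. The bars are as long in lipolysis, transcription factors, glucocorticoid response and the mitochondrial genome, and longer for preadipocyte markers. On the lower side they are shorter for actin, matrix and preadipocyte genes, transcription factors and glycolysis. They are longer there for interferon response, collagens, fatty acid synthesis and lipolysis.

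The lipid genes are described by step, from synthesis to storage, release and uptake. Of 16 tested genes of fatty acid synthesis, 6 rose and 2 fell with luteolin (median log2 fold change 0.22), against 11 and 1 with DMI (median 0.84), and 14 of the 16 had a lower mean with luteolin than with DMI. Scd1, the desaturase that makes oleate, stood at 125, 119.8 and 212 CPM untreated, 3070.2, 3882 and 1895 CPM with luteolin and 12874, 13632 and 4599 CPM with DMI. It rose by 4.28 ± 0.44 over untreated (adjusted p = 0.00014) and was -1.81 ± 0.39 from its DMI level. That difference did not pass in the main fit (adjusted p = 0.364) and passed in the blocked fit (adjusted p = 0.000291). With the block over the 12 libraries 0 of the 16 fatty acid synthesis genes were called. The highest luteolin library of Scd1 lay below its lowest DMI library. Thrsp, a regulator of lipogenesis, stood at 0.435, 0.119 and 1.21 CPM untreated, 92.4, 116 and 69.7 CPM with luteolin and 349, 443 and 168 CPM with DMI, again without overlap between the induced groups. Scd2, the desaturase isoform already abundant in preadipocytes, stood at 1613, 1559 and 2142 CPM untreated, 2036, 2216 and 1940.0 CPM with luteolin and 3506, 3545 and 2459 CPM with DMI and did not pass with luteolin (adjusted p = 0.485). The 2 genes are close paralogs that may share reads, so their counts are uncertain. Without the third libraries of all induced groups Scd2 passed (adjusted p = 0.0336) and 11 of the 16 genes were called higher. The 6 rises were 3 when untreated library 1 or 2, or luteolin library 1 or 2, was left out, and the 2 falls were then 0 or 1.

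Of 13 triglyceride assembly genes, 9 rose and 0 fell with luteolin, with a median of 3.22, or 2.88 with the gene at 0 counts in untreated cells set to its lower bound, against 3.26 with DMI. All 13 had a lower mean with luteolin than with DMI, and the luteolin median was 2.23 over the 12 genes that reached 1 CPM in 3 libraries. Gpd1, which makes glycerol 3-phosphate, stood at 0.684, 0.954 and 4.95 CPM untreated, 1255, 1467 and 581 CPM with luteolin and 2727, 3387 and 1009 CPM with DMI. Dgat2, which adds the last fatty acid, stood at 2.05, 2.09 and 3.75 CPM untreated, 255, 292 and 113 CPM with luteolin and 559.6, 662 and 156 CPM with DMI, a rise of 6.38 ± 0.70. Gpat3, an acyltransferase of the first step, rose by 4.06 ± 0.61 with luteolin and 4.42 with DMI. Agpat3, another acyltransferase, did not pass with luteolin (log2 fold change 0.75, adjusted p = 0.0715) and did with DMI (1.16, adjusted p = 0.009). It passed with luteolin under 9 of the alternatives tried.

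Of 10 lipid droplet proteins, 6 rose with luteolin and 7 with DMI. Beside Plin1 and Cidec the largest rise was in G0s2, an inhibitor of the main triglyceride lipase, which stood at 0.311, 0.0596 and 0.786 CPM untreated, 80.4, 100.2 and 47.05 CPM with luteolin and 249, 290.1 and 62.4 CPM with DMI. Bscl2, the gene of seipin, which shapes nascent droplets, stood at 6.28, 6.86 and 5.98 CPM untreated, 12.98, 16.4 and 8.78 CPM with luteolin and 27.5, 29.5 and 9.85 CPM with DMI. Its luteolin libraries were all above the untreated ones, but the test did not pass (adjusted p = 0.0655), while it did under 11 of the alternatives tried. Of 14 lipolysis genes 12 rose in each contrast, with medians of 5.04 with luteolin (5.00 with genes at 0 counts set to their lower bound) and 6.26 with DMI. The lysosomal lipase gene Lipa fell with luteolin, a call lost without any single untreated or luteolin library or DMI library 1 and with other scalings (adjusted p = 0.0506 with RLE and 0.0518 with library totals). Hcar2, a receptor that restrains lipolysis, stood at 14.4, 16.7 and 6.99 CPM with luteolin against 1 read in the untreated group, a ratio of 638 (95% exact counting interval 114 to 25240.0), and Aqp7, the glycerol channel, stood at 0.0622, 0.0596 and 0.181 CPM untreated and 23.6, 26.8 and 7.39 CPM with luteolin. Of 15 uptake and carrier genes, 7 rose, led by Cd36, the fatty acid translocase (0.249, 0.656 and 3.14 CPM untreated, 980.0, 1057 and 398 CPM with luteolin), and Acsl1, the main acyl-CoA synthetase of adipocytes (16.5, 15.9 and 19.8 and 2181, 2474 and 812 CPM).

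Mitochondrial genes rose as well, with lower medians than the adipocyte list. Of 19 genes of fatty acid oxidation, 16 rose with luteolin and 18 with DMI, with a median of 1.32 with luteolin. Acadm, the medium-chain dehydrogenase, stood at 47.00, 50.9 and 49.4 CPM untreated, 218, 231 and 137 CPM with luteolin and 333, 374 and 141 CPM with DMI. Slc25a20, the carnitine carrier of the inner membrane, stood at 19.8, 19.4 and 21.3 CPM untreated and 22.5, 24.01 and 22.6 CPM with luteolin and did not pass (adjusted p = 0.495), against 35.7, 41.4 and 24.1 CPM with DMI, where it did. It passed without the third libraries of all induced groups (adjusted p = 0.0479). Of 21 genes of pyruvate entry and the citric acid cycle, 18 rose, with a median of 1.21 against 1.68 with DMI. Pcx, pyruvate carboxylase, moved farthest, from 48.1, 51.8 and 54.5 CPM untreated to 1557, 1669 and 702 CPM with luteolin and 2398, 2744 and 779 CPM with DMI, and Idh3a and Pdhb rose by 1.86 ± 0.34 and 1.65 ± 0.34. Of 18 genes of branched-chain amino acid breakdown, 13 rose, with medians of 1.18 and 1.45. Bcat2, the mitochondrial transaminase of the first step, stood at 30.2, 32.3 and 32.1 CPM untreated, 191, 214 and 93.2 CPM with luteolin and 413, 507 and 124 CPM with DMI, and Aldh6a1 rose by 2.73 ± 0.44.

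Of 32 nuclear-encoded subunits, 25 rose with luteolin and 31 with DMI, and the medians were 1.11 and 1.36. Uqcrfs1, the Rieske protein of complex III, stood at 76.2, 78.6 and 80.4 CPM untreated, 265, 284 and 147 CPM with luteolin and 397, 429 and 177 CPM with DMI. Cyc1, cytochrome c1 of the same complex, stood at 84.7, 92.1 and 86.3 CPM untreated and 287, 310.1 and 170.2 CPM with luteolin, a rise of 1.54 ± 0.35 (adjusted p = 0.0101). In 31 of the 32 subunits all 3 luteolin libraries lay above all 3 untreated ones, read against 25.0% of all genes tested. Of 12 tested genes of the mitochondrial genome, 8 rose in each contrast, with medians of 1.12 and 1.22. The mitochondrial genes with low counts, such as mt-Nd3 (1.12, 0.775 and 1.09 CPM untreated, 39.8, 26.5 and 2.00 CPM with luteolin), vary widely between luteolin libraries. They have near-identical nuclear copies, so their values are uncertain, and mt-Nd3 did not pass with limma-voom (adjusted p = 0.0884). The 25 nuclear subunits became 10, 10 and 14 without untreated library 1, 2 or 3 and 10 and 8 without luteolin library 1 or 2. The 16 oxidation genes became 9 and 10 without untreated library 1 or 2 and 9 and 8 without luteolin library 1 or 2. The 18 citric acid cycle genes became 8, 10, 11, 8 and 7, and the 13 branched-chain genes 7, 8, 8, 7 and 7, without untreated library 1, 2 or 3 and luteolin library 1 or 2 in turn. The 8 mitochondrial-genome genes became 5 in each of those 5 cases. Without the third luteolin library the respective counts were 24, 16, 19, 14 and 8.

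**Figure D4:**
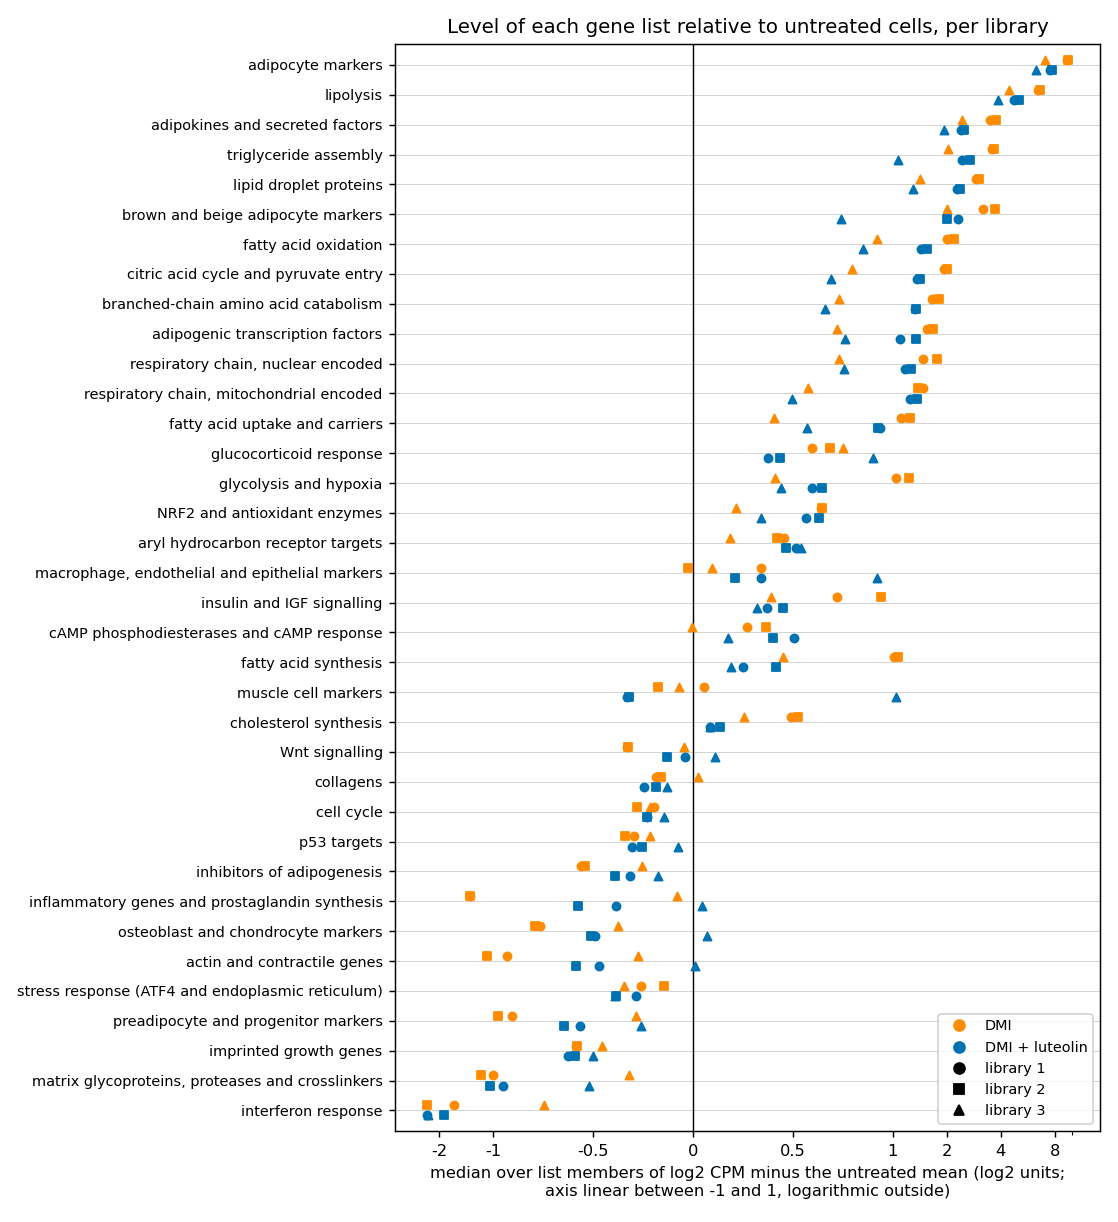
For each gene list (rows), the median over its tested members of log2 CPM minus the untreated mean, in each DMI (orange) and DMI with luteolin (blue) library, on an axis that is linear between -1 and 1 and logarithmic outside; marker shape gives the library number. The third library (triangle) lies nearer to 0 than the first and second in both groups for the adipocyte and mitochondrial lists, while for interferon response the 3 luteolin libraries lie close together.

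Among 321 protein-coding genes that rose at least 4-fold with DMI and reached 5 CPM there, those lying lowest with luteolin relative to DMI included Mgll and Pnpla3. These genes were chosen by that difference, so their values are a description. Mgll, the lipase of the last step of triglyceride breakdown, stood at 0.435, 0.418 and 0.544 CPM untreated, 7.74, 13.4 and 4.92 CPM with luteolin and 56.3, 66.6 and 14.2 CPM with DMI. Pnpla3, a lipid droplet acylhydrolase, stood at 8.03, 8.85 and 3.19 CPM with luteolin and 39.4, 45.5 and 10.5 CPM with DMI. The uncharacterised 2610528A11Rik lay lowest of all, at 0.582, 1.30 and 1.33 CPM with luteolin against 10.9, 12.5 and 3.14 CPM with DMI. Also at that end were Aldh1l1, Cyp2f2, Smyd1 and Npnt, and these 7 genes still passed the test against untreated cells. Calls were lost for Aldh1l1 without untreated library 1 or 3 or luteolin library 1 or 2 (adjusted p from 0.0626 to 0.0786) and for Cyp2f2 without untreated library 1 or 2 or luteolin library 2. With limma-voom Smyd1, Npnt and Cyp2f2 did not pass (adjusted p = 0.064, 0.0933 and 0.129).

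At the other end were DMI-induced genes whose level with luteolin was at least that with DMI. Agt, the gene of angiotensinogen, stood at 6.40, 7.46 and 7.61 CPM untreated, 295, 314 and 193 CPM with luteolin and 239, 275 and 93.6 CPM with DMI. Sparcl1, a matricellular protein, stood at 32.8, 30.7 and 20.1 CPM untreated, 243, 255 and 175 CPM with luteolin and 201, 226 and 92.5 CPM with DMI. Vstm2a, a secreted factor of preadipocytes, stood at 2.18, 2.39 and 2.11 CPM untreated, 13.7, 15.2 and 13.97 CPM with luteolin and 11.8, 9.73 and 9.60 CPM with DMI. Itih4, Slc43a2, Tusc5 and Gm10053 were also among them. Gm10053 is a predicted gene that may share reads with a near-identical copy, so its count is uncertain. The luteolin libraries overlapped the DMI libraries for Agt and Sparcl1 and lay above every one of them for Vstm2a.

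Among the genes with the largest falls were Mfap4, Igfbp5, Piezo2, Cd38 and Cilp. Mfap4, a protein of elastic microfibrils, stood at 502, 515 and 509 CPM untreated, 15.7, 15.8 and 52.9 CPM with luteolin and 57.1, 53.2 and 236 CPM with DMI, a log2 fold change of -4.18 ± 0.62 with luteolin (adjusted p = 0.00101) that was -5.01 without luteolin library 3. Igfbp5, which binds and holds insulin-like growth factors, stood at 120.0, 114 and 87.4 CPM untreated, 5.59, 6.90 and 9.85 CPM with luteolin and 16.04, 13.02 and 24.01 CPM with DMI, and fell by 3.85 on the log2 scale (adjusted p = 3.40e-05). Piezo2, a mechanically gated channel, stood at 32.9, 29.2 and 32.02 CPM untreated and 1.51, 1.53 and 2.40 CPM with luteolin, and Cd38, an NAD-consuming enzyme, at 5.16, 7.16 and 4.89 and 0.233, 0.354 and 0.532 CPM. In none of these 4 genes did any luteolin library overlap an untreated one. Cilp, a matrix protein, had the largest fall among protein-coding genes reaching 5 CPM with no overlap, from 76.5, 73.3 and 129 to 0.291, 0.531 and 7.05 CPM, but its spread was wide. Its adjusted p was 0.0235, and it lost the call without untreated library 1 or 3 or luteolin library 1 or 2, with adjusted p from 0.0514 to 0.102.

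Interferon-induced genes fell as a group. These genes encode antiviral proteins that are switched on through the interferon-stimulated response element, and a low tonic level is common in fibroblasts. Of 25 tested, 24 were called lower with luteolin and 0 higher, and 22 were lower with DMI, with median log2 fold changes of -2.18 and -1.44. All 25 lay farther from untreated with luteolin than with DMI in the fitted value, by a median of -0.66 log2 units. In the direct test against DMI, however, the lowest adjusted p among them was 0.49, for Mx1. In the blocked fit 2 of the 23 tested there were called lower, and with the block over the 12 libraries 0 were called. In all 25 the 3 luteolin libraries lay below the 3 untreated ones, as in 28.8% of all genes tested. The summed level of the list was 2866 to 3185 CPM in the untreated libraries, 720.1 to 802 CPM with luteolin and 625 to 1740.0 CPM with DMI. The luteolin libraries lay within the range of the DMI libraries, of which library 3 was the highest. The count was 23 to 25 with any one library left out. Promoters of 3 members are printed to show the element through which this response works, as the 250 bases upstream of the RefSeq start (GRCm38.p6, 5′ to 3′), with matches to the element's core in capitals. The core was taken as GAAA, any 2 bases and GAAA again, or its reverse complement TTTC, any 2 bases and TTTC. Overlapping matches form 1 run.
Oas1a (chr5:120907526-120907775, minus strand): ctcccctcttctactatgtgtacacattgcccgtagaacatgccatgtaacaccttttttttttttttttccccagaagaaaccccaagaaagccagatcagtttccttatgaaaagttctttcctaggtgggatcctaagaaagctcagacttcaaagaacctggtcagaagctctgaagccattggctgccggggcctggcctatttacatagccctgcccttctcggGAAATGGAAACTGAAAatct
Isg15 (chr4:156200819-156201068, minus strand): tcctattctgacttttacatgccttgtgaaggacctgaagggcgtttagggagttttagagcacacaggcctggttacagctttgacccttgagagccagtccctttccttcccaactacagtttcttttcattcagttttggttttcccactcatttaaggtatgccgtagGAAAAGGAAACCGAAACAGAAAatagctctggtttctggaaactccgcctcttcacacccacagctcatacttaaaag
Ifit1 (chr19:34640639-34640888, plus strand): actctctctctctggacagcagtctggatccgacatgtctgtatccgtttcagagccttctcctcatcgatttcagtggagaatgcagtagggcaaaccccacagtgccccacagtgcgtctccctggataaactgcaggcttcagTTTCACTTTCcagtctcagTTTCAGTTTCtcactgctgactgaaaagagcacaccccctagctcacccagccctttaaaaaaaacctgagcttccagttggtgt
The core was found upstream of 11 of the 19 tested interferon genes in the RefSeq table (57.9%), of 0 of 13 tested adipocyte genes and of 3.20% of the tested genes there. The list was named for this response, so the share describes the list and is no test of a factor.

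The values of these and neighbouring members show the depth of the fall. Oas1a, which makes the 2′-5′ oligoadenylate that activates RNase L, stood at 23.4, 19.7 and 18.2 CPM untreated, 1.28, 1.42 and 1.66 CPM with luteolin and 1.32, 0.754 and 3.69 CPM with DMI. Isg15, a ubiquitin-like modifier, stood at 149.8, 143 and 136 CPM untreated, 24.04, 23.9 and 26.3 CPM with luteolin and 25.4, 21.4 and 77.9 CPM with DMI. Ifit1, which binds foreign RNA caps, stood at 190.0, 199 and 172 CPM untreated, 37.1, 54.4 and 32.3 CPM with luteolin and 60.7, 34.7 and 111 CPM with DMI. In all 3 the luteolin libraries lay below every untreated library, and the third library was not set apart as it was for the adipocyte genes. Oas2, of the same family, fell from 98.9, 88.2 and 67.7 CPM to 6.23, 5.60 and 4.19 CPM (log2 fold change -3.99 ± 0.39, adjusted p = 0.000131). Oas1a and Oas1g (log2 fold change -4.67, or -5.40 without luteolin library 1) are near-identical neighbours on chromosome 5, so their counts are uncertain. Mx1, an antiviral GTPase, stood at 45.7, 44.6 and 32.99 CPM untreated, 9.66, 13.4 and 7.52 CPM with luteolin and 21.3, 12.5 and 33.98 CPM with DMI, so that DMI library 3 was within the untreated range while luteolin library 3 was the lowest of all.

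In the main fit genes of matrix glycoproteins, proteases and crosslinkers were called in 1 direction, and collagens in both. Of the 24 matrix genes other than collagens, 12 fell and 0 rose with luteolin, against 16 and 0 with DMI, with the same median of -0.79. Fn1, fibronectin, stood at 14502, 13727 and 14312 CPM untreated, 3488, 3176 and 5080.3 CPM with luteolin and 2798, 2247 and 6542 CPM with DMI, a fall of 1.86 on the log2 scale (adjusted p = 0.00891). Timp3, a protease inhibitor of the matrix, stood at 62.2, 55.00 and 62.8 CPM untreated and 11.6, 12.98 and 14.7 CPM with luteolin. Eln, elastin, stood at 21.01, 21.00 and 29.2 CPM untreated, 3.49, 3.30 and 5.79 CPM with luteolin and 7.17, 8.02 and 14.04 CPM with DMI. Its luteolin libraries lay below every DMI library, but the direct test did not pass (-1.22 ± 0.29, adjusted p = 0.4). It passed in the blocked fit (adjusted p = 0.00343) and not with the block over the 12 libraries (adjusted p = 0.0672). Of 20 collagens, 10 fell and 3 rose with luteolin (median -0.19), against 6 and 4 with DMI (median -0.03). Col1a1, the main fibrillar collagen chain, stood at 16634, 16241 and 15591 CPM untreated, 5358, 5052 and 7351 CPM with luteolin and 6724, 6530.4 and 10454 CPM with DMI, while Col15a1, a basement membrane collagen, stood at 45.6, 41.8 and 25.7 CPM untreated and 191, 207 and 92.7 CPM with luteolin and rose by 2.12 ± 0.51. Col15a1 lost its call without untreated library 3 or luteolin library 1 or 2 (adjusted p = 0.0579, 0.0507 and 0.0558). The 12 matrix falls were 7 without any 1 untreated library and 6 without luteolin library 1 or 2. The 10 collagen falls were 6, 5, 5, 5 and 5 in the same 5 cases, and the 3 collagen rises were 1 in each of them. The collagen rises were 6 without the third quercetin library and 8 without the third libraries of all induced groups. Of the other matrix genes, 1 rose without DMI library 3 or quercetin library 1 or 2. In that list 2 rose without quercetin library 3 or without the third libraries of all induced groups.

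Of 15 preadipocyte and progenitor markers tested, 6 fell and 1 rose with luteolin, against 8 and 0 with DMI. Dlk1, the preadipocyte factor Pref-1, stood at 6574, 6904 and 6848 CPM untreated, 1209, 995 and 2039 CPM with luteolin and 1739, 1562 and 3120.4 CPM with DMI, a log2 fold change of -2.26 ± 0.32 (adjusted p = 0.000773). In both induced groups library 3 was the highest. Thy1, a surface marker of fibroblasts, stood at 101, 94.3 and 108 CPM untreated, 53.2, 45.5 and 73.00 CPM with luteolin and 30.6, 31.2 and 46.4 CPM with DMI, and Pdgfra, the receptor of progenitors, at 589, 604 and 577 and 612, 612 and 678 CPM and did not pass (adjusted p = 0.575). S100a4, a calcium-binding protein of fibroblasts, was the member that rose, from 4.79, 3.76 and 4.89 CPM to 14.8, 14.04 and 16.8 CPM with luteolin (adjusted p = 0.00667). The 6 falls were 3 without luteolin library 1, and Thy1 lost the call without untreated library 3 or luteolin library 1 or 2 (adjusted p from 0.0653 to 0.0742). Of 17 actin and contractile genes, 2 fell with luteolin and 9 with DMI, with medians of -0.37 and -0.76. Actg1, cytoplasmic γ-actin, stood at 1099, 1118 and 1128 CPM untreated, 619, 619.8 and 791 CPM with luteolin and 529, 506 and 860.3 CPM with DMI, and Flna, filamin A, did not pass with luteolin (adjusted p = 0.167) and did with DMI (adjusted p = 0.0191). The 2 falls, Actg1 and Tpm2, were 0 without any single untreated library or luteolin library 1 or 2, were 4 without the third DMI library and were 8 without the third libraries of all induced groups.

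The 3 genes called between luteolin with DMI and DMI alone were carried farther from the untreated level than DMI carried them. H19 (chr7:142575529-142578143), an imprinted noncoding RNA, stood at 36.1, 40.98 and 38.5 CPM untreated, 15.8, 19.5 and 21.2 CPM with DMI and 5.59, 4.19 and 4.99 CPM with luteolin. Plagl1 (chr10:13060504-13131694), an imprinted zinc finger factor, stood at 53.7, 55.2 and 47.3 CPM untreated, 42.9, 34.7 and 26.9 CPM with DMI and 11.5, 10.03 and 10.6 CPM with luteolin. Gfra1 (chr19:58235604-58455909), a receptor of glial cell line-derived factor, stood at 55.6, 54.8 and 53.9 CPM untreated, 25.6, 17.3 and 29.1 CPM with DMI and 10.2, 10.3 and 10.7 CPM with luteolin. In each gene the 3 groups did not overlap, and the 3 luteolin libraries lay close together, the third included. The log2 fold changes against untreated were -2.97 ± 0.24, -2.28 ± 0.23 and -2.39 ± 0.17, with adjusted p = 4.34e-05, 0.000131 and 2.80e-05. Against DMI they were -1.93 ± 0.23, -1.70 ± 0.22 and -1.21 ± 0.17, with adjusted p = 0.0299, 0.0357 and 0.0433. All 3 calls were lost without any single untreated or luteolin library or DMI library 1, with limma-voom and in the 6 libraries of the pair without the block. Only 1 gene was called against DMI without DMI library 2, and 1 without quercetin library 1. With library totals or the filter of 1 CPM in 3 libraries 2 genes were called, and among protein-coding genes alone 0. Of 11 imprinted growth genes tested, 5 fell and 1 rose with luteolin, the rise, in Mest, being lost without any single untreated library, luteolin library 1 or 2 or DMI library 1 or 2. Ndn, a growth suppressor, fell by 0.98 on the log2 scale with luteolin and by 0.92 with DMI.

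**Figure D5:**
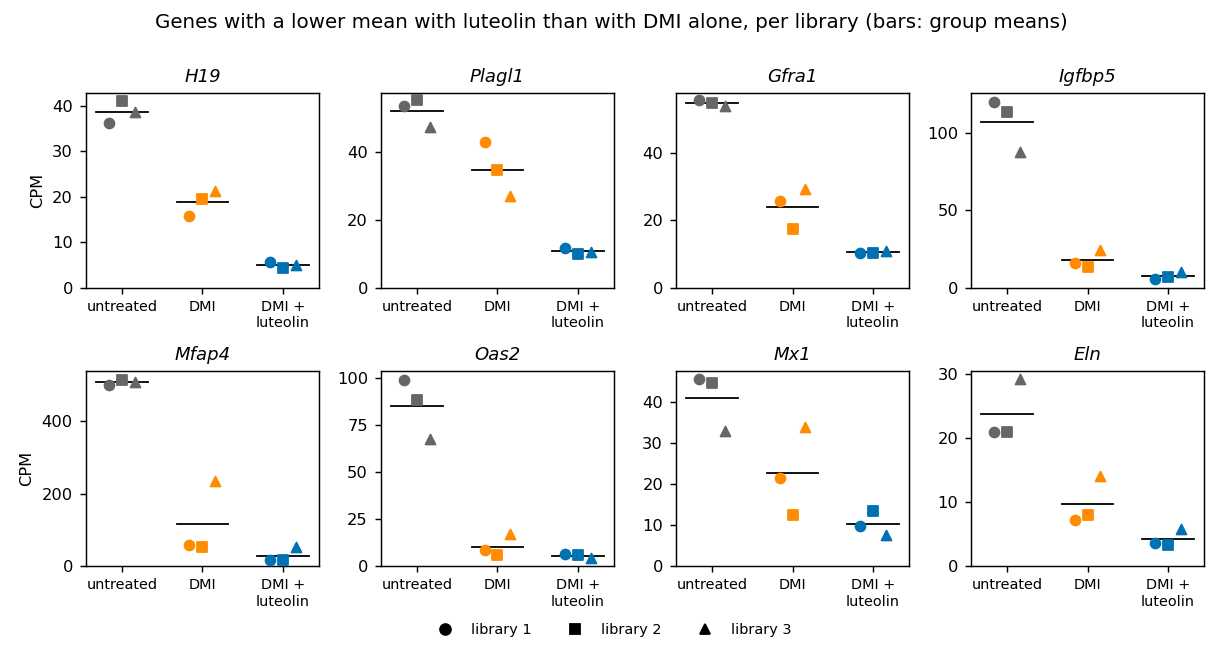
CPM (linear axis from 0) of 8 genes per library, with the group mean as a bar. For H19, Plagl1 and Gfra1 the luteolin libraries (blue) lie below every DMI library (orange) and every untreated library (grey). For Igfbp5, Mfap4, Oas2, Mx1 and Eln the luteolin mean is the lowest as well, but the direct test against DMI did not pass. In the blocked fit Igfbp5, Mfap4 and Eln passed, and with the block over the 12 libraries they did not (adjusted p = 0.0772, 0.0957 and 0.0672).

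In total 400 of the 14855 genes tested were called with luteolin and not with DMI against untreated, 174 higher and 226 lower. Only 1 of the 400, Plagl1, passed the direct test. In the blocked fit 69 passed, where 929 of all 14111 genes (6.58%) did, and with the block over the 12 libraries 4 passed. The 400 were picked with the same luteolin and DMI libraries, which favours such calls. Most of them are thus not shown to differ between the 2 treatments. Nqo1, a quinone reductase driven by the aryl hydrocarbon receptor and by NRF2, stood at 12.3, 10.3 and 12.5 CPM untreated, 18.9, 18.6 and 26.7 CPM with luteolin and 14.1, 14.9 and 13.7 CPM with DMI. It rose by 0.87 ± 0.16 over untreated (adjusted p = 0.0036), and its luteolin libraries lay above every other library of the 9 compared. Its difference from DMI was 0.59 ± 0.16 (adjusted p = 0.49). The adjusted p was 0.0382 in the blocked fit and 0.235 with the block over the 12 libraries.

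Markers of brown fat, muscle, macrophage, endothelial and epithelial cells were low, while those of osteoblasts and chondrocytes were not all low. Ucp1, the uncoupling protein of brown fat, and the muscle factors Myod1 and Myog had 0 counts in all of the 9 libraries. Of 15 listed macrophage, endothelial and epithelial markers, 5 passed the filter and 1 changed, the endothelial gene Tek, which was lower (2.42, 2.27 and 2.05 CPM untreated, 0.699, 0.472 and 0.665 CPM with luteolin) and lost the call without any single untreated library or luteolin library 1 or 2. The summed level was 8.83 to 9.19 CPM untreated and 9.61 to 12.4 CPM with luteolin. The macrophage markers Adgre1 and Ptprc had 0 counts in the untreated libraries, and with luteolin Ptprc had 2 counts in 1 library. Of 12 muscle markers, 5 were tested and 2 rose, Myh11 (0.559, 0.0596 and 0.363 CPM untreated, 8.73, 12.5 and 5.12 CPM with luteolin) and Des (2.24, 2.03 and 1.27 and 11.99, 14.1 and 5.52 CPM), with summed levels of 5.02 to 6.90 CPM untreated and 13.1 to 28.6 CPM with luteolin. The muscle gene Tnnt3 was called lower with adjusted p = 0.0476, a call lost without any single untreated or luteolin library. Among 13 brown and beige markers 4 were tested, and Cox8b and Cox7a1 rose while Ppargc1a fell. Cox7a1 lost its call without untreated library 2 or 3 or luteolin library 2, and Ppargc1a as given above. Of 12 osteoblast and chondrocyte markers 5 were tested, and the summed level was 413 to 495 CPM untreated and 183 to 306 CPM with luteolin. Spp1, osteopontin, was the most abundant of them in untreated cells (269, 255 and 329 CPM untreated, 75.6, 66.4 and 154 CPM with luteolin) and did not pass (adjusted p = 0.0923), although it passed under 6 of the alternatives. Runx2, a transcription factor of osteoblasts, fell (57.2, 58.6 and 58.97 CPM untreated, 39.5, 39.6 and 41.9 CPM with luteolin), and Alpl, an alkaline phosphatase, rose (1.37, 0.895 and 1.09 and 3.67, 3.95 and 2.06 CPM). Both calls were lost without any single untreated library or luteolin library 1 or 2, that of Alpl also without DMI library 1 and with limma-voom, and that of Runx2 also with no filter on low counts. The defining markers Sp7, Bglap and Acan had 0 to 2 counts in each untreated library and at most 8 in each luteolin library. The part of such cells in the results above was not tested beyond these levels.

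Quercetin, a related flavonoid, was given with DMI in 3 further libraries, also without a stated dose, so the values are set side by side only. Adipoq stood at 609, 641 and 131 CPM with quercetin and Cidec at 493, 414 and 106 CPM, where the luteolin libraries had 1132, 1345 and 396 and 778, 1052 and 383 CPM. In both groups the third library was the lowest for these genes. For H19 the quercetin libraries stood at 14.7, 13.5 and 7.42 CPM. When luteolin with DMI was tested against quercetin with DMI, 0 of 14855 genes passed, so these values do not show a difference between the flavonoids.

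The authors' deposited table for luteolin with DMI against untreated, made with their own test, lists 5686 genes at adjusted p below 0.05, of which 3040 are higher and 2646 lower. It holds 2852 of the 2865 genes called here, and no sign differs between it and the fit used here for those 2852. In the authors' deposited table the log2 fold change of Adipoq is 10.15, that of Fabp4 8.78 and that of Cidec 9.47. For Cebpb, which did not pass here, the authors' deposited table gives 0.49 and an adjusted p of 1.21e-08.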

How the data were processed

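RNA was measured by sequencing in 12 libraries, 3 for each of 4 groups taken from the labels' treatment. Per the submitters' processing notes, CASAVA 1.8.2 and featureCounts 1.5.0-p3 were used and the build is named mm9. The authors deposited raw counts per gene, FPKM per library and, for each comparison, scaled count signal, log2 fold changes and p-values. In 98.1% of 54532 genes the deposited positions equal those of GENCODE release M21 (GRCm38), so positions are given as deposited. The notes name no strand setting, so overlapping and antisense genes cannot be told apart. Here 14855 genes passed edgeR 4.0.16 filterByExpr, counts were scaled by TMM, and 1 quasi-likelihood fit over the 12 libraries with a coefficient per group was tested with Benjamini-Hochberg adjustment at 0.05. SE values are the log2 fold change divided by the square root of the test's F. Intervals on ratios and the floor of 3 counts over a group cover counting error only. Promoters and motifs were read from the RefSeq table (GRCm38.p6). The comparison, gene lists and rules were chosen with earlier results of these data known. Named genes were the 3 markers, the 10 largest rises and falls reaching 5 CPM without overlap, up to 3 called and 2 uncalled members a list, and the DMI-induced or DMI-repressed genes farthest from their DMI level. Other genes named, among them Pparg, Fkbp5, Scd2, Mx1, Thy1, Dgat2, Retn and Igf1, and the printed promoters were chosen after their values were seen. Some genes that these rules name are not reported here. Scripts were tested on simulated data. Alternatives used RLE or library totals, other filters, DESeq2 1.42.0, limma-voom 3.58.1, the 6 libraries alone, a replicate block, and leaving out libraries. Same-numbered luteolin and DMI libraries deviated together from their group means (r across genes 0.261, 0.337 and 0.59), so their numbers were taken as pairs from the data, although luteolin library 2 correlated more with DMI library 1 (0.367) and the labels name no shared batch.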

Additional observations from a re-analysis of the deposited data

How the results depend on the processing

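The number of genes called depended on the libraries fitted. Among the calls that an alternative kept, 0 changed sign, and signs were compared for those alone. The fewest kept were 1172 of the 2865, without luteolin library 2. Fitting only the 6 libraries gave 5939 calls (3087 higher, 2852 lower), and leaving out the third library of each induced group gave 6786 (3770 higher, 3016 lower). With 1 library left out the count was 1181 to 4499, of which 703 to 2777 were higher and 478 to 1733 lower, and 901 to 1801 reached 2-fold. DMI against untreated gave 1865 to 5569 calls with 1 library left out and 7970 without the third libraries. Luteolin with DMI against DMI gave 0 with limma-voom, with protein-coding genes alone and with the 6 libraries alone (904 genes had an unadjusted p under 0.05 in the fit reported), 48 with DESeq2, 363 with no filter on low counts, 0 to 259 with 1 library left out and 1566 without the third libraries. The replicate number as a block gave 5760 calls (2944 higher, 2816 lower) in the 6 libraries, and for luteolin with DMI against DMI 25 over 12 libraries and 929 in 6. Same-numbered luteolin and untreated libraries did not deviate together (r across genes 0.0258, 0.0283 and 0.07), so these were not taken as pairs. How many genes differed between luteolin with DMI and DMI thus depended on the model and on the third libraries.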

Other observations

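Several further gene groups were measured in the same contrast. Of 20 glycolysis and hypoxia genes, 8 rose with luteolin and 14 with DMI, with medians of 0.52 and 0.94 log2 units. The 8 were 4 without untreated library 1 or 2 or luteolin library 2, and 5 without luteolin library 1. Pfkfb3, which makes the main activator of glycolysis, stood at 11.3, 9.60 and 13.4 CPM untreated, 151, 160.2 and 58.9 CPM with luteolin and 207, 228 and 76.2 CPM with DMI. Aldoa, the aldolase of the glycolytic trunk, did not pass with luteolin (adjusted p = 0.0524, and it passed under 13 of the alternatives) and did with DMI (adjusted p = 0.00445). Of 21 cholesterol synthesis genes, 3 rose with luteolin and 7 with DMI. The 3 were 1 without untreated library 1 or 2 or luteolin library 1 or 2, 5 without the third quercetin library and 6 without the third libraries of all induced groups. Insig1, the sterol sensor's anchor, stood at 127, 125 and 195 CPM untreated, 234, 256 and 193 CPM with luteolin and 377, 387 and 234 CPM with DMI and did not pass with luteolin (adjusted p = 0.0706), although it passed under 10 of the alternatives. Of 18 adipokines and secreted factors, 12 rose. Resistin, from the gene Retn, stood at 0, 0 and 0.242 CPM untreated, 89.01, 122 and 40.6 CPM with luteolin and 313, 389 and 64.95 CPM with DMI.

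Stress genes moved in both directions. Of 18 ATF4 and endoplasmic reticulum stress genes, 9 fell and 1 rose. The rise was lost without untreated library 1 or luteolin library 1 or 2, and 4 genes rose without the third libraries of all induced groups. Trib3, a pseudokinase induced by ATF4, stood at 116, 129 and 143 CPM untreated, 34.6, 33.98 and 60.96 CPM with luteolin and 35.99, 37.3 and 64.5 CPM with DMI. Of 20 NRF2 and antioxidant genes, 8 rose and 1 fell, and the 8 were 5 without untreated library 1 or 2 or luteolin library 1 or 2, 13 without the third quercetin library and 16 without the third libraries of all induced groups. Mgst1, a microsomal glutathione transferase, stood at 98.03, 103 and 103 CPM untreated, 527, 555 and 288 CPM with luteolin and 601, 622 and 253 CPM with DMI, and Slc7a11, the cystine transporter, fell by 2.18 on the log2 scale. Of 17 inhibitors of adipogenesis, 7 fell and 1 rose with luteolin, against 6 and 1 with DMI. The 7 were 3 without untreated library 2 or luteolin library 1, 4 without untreated library 3 and 2 without luteolin library 2. The rise with luteolin was lost without untreated library 3 or luteolin library 1 or 2, and 2 genes rose without the third libraries of all induced groups. Of 16 inflammatory and prostaglandin genes, 3 rose and 2 fell, against 2 and 7 with DMI. The 3 rises were 1 without luteolin library 2. The 2 falls were 0 or 1 without any single untreated library, luteolin library 1 or 2 or quercetin library 2, and 8 without the third libraries of all induced groups.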
